A study of Mus musculus with 16 samples.

Results

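The 30 genes described here form a module of peripheral myelin and Schwann cell maturation. They were taken as a list of names by their roles, with earlier results of these data known. The counts of calls below are therefore not those of a list drawn up without the data. All 30 were found once each among the 25719 gene identifiers of the series. All 30 passed the filter on low counts, which left 15109 genes. The tissue was the trigeminal ganglion of the mouse, which holds the cell bodies of the sensory neurons of the face together with satellite glia and Schwann cells. The 16 libraries fell into 4 groups of 4. These were Nogo-A KO and wild-type (WT) mice at postnatal day 25 (P25), and Nogo-A KO and WT embryos at embryonic day 14 (E14). Nogo-A is the long protein product of Rtn4 and is best known as a myelin-associated inhibitor of axon growth. The labels give no strain, sex or treatment and no detail of the deleted allele. Each library held RNA of 1 ganglion, with all of its cell types.

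Schwann cells are the glia of peripheral nerves. Precursors become immature Schwann cells in the embryo, and those that pair with a large axon pass through a promyelinating stage marked by Pou3f1 before Egr2 turns on the myelin program. The mature sheath has compact myelin, built of tightly stacked membrane, and non-compact regions such as paranodes and incisures, which hold cytoplasm, gap junctions and adhesion proteins. Sensory ganglia contain such myelinated fibres, and mutations in many of the genes below cause inherited demyelinating neuropathy in humans.

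Library totals ran from 15532373 to 29562379 counts. Levels are given as CPM, which are counts relative to the library total, scaled by TMM so that libraries can be compared. The members took 1.72, 1.87, 2.41 and 1.64% of all counts in P25 KO ganglia, against 1.86, 1.92, 1.74 and 1.89% in P25 WT ganglia. At E14 the share was between 0.113 and 0.130% in KO ganglia and between 0.113 and 0.129% in WT ganglia. One library stood apart from its group. The log2 levels of E14 WT replicate 2 deviated from the group mean with an SD of 0.80 over all genes. In the other 15 libraries the SD was 0.213 to 0.442. Some results that rest on E14 WT replicate 2 are therefore also given without it. A ganglion is a mixture, and fewer cells of a type and less RNA per cell cannot be told apart here. All p-values here refer to the spread from ganglion to ganglion. At E14, 2 ganglia of each genotype have a common number in their library names and differ in the side, and these may come from 1 embryo.

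Rtn4, the targeted gene, had 364, 379.9, 345 and 384 CPM in P25 KO ganglia, against 494, 542, 512 and 406 CPM in P25 WT ganglia. At E14 it had 291, 405, 260.1 and 236 CPM in KO ganglia, against 328, 144, 521 and 444 CPM in WT ganglia. These gene totals also count the shorter Nogo transcripts of the same gene, so they do not check the genotype labels.

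**Figure D1:**
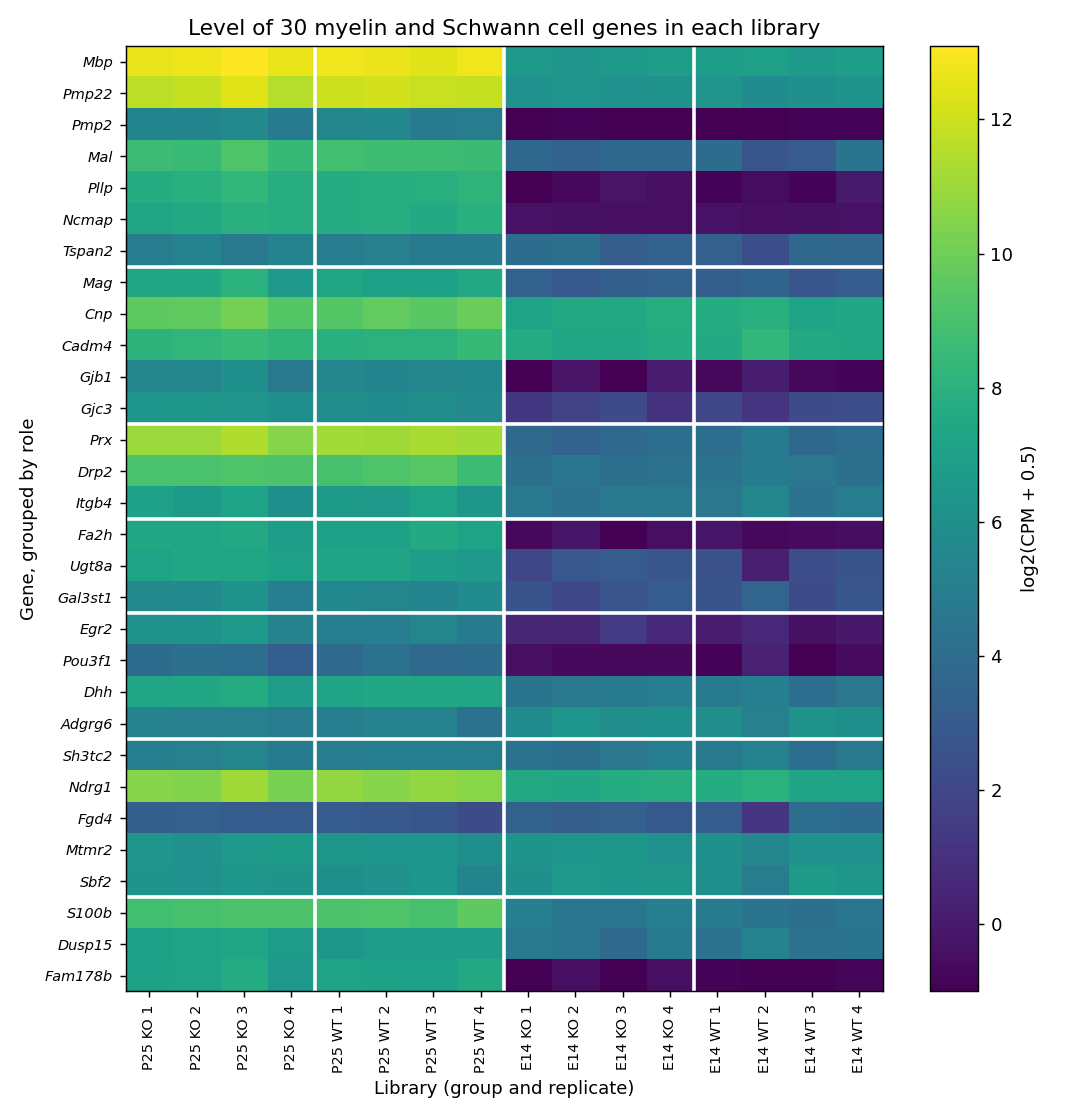
Levels of the 30 genes (rows, grouped by role from compact myelin proteins at the top to other members at the bottom) in the 16 libraries (columns), as log2(CPM + 0.5). The P25 columns on the left are brighter than the E14 columns on the right for most rows, while Adgrg6, Mtmr2 and Sbf2 show less contrast.

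Between E14 and P25 most of the module rose, by amounts that spanned several orders of magnitude. In KO ganglia 26 of 30 members were called higher at P25 than at E14 and 1 was called lower, where called means an adjusted p under 0.05. Over all tested genes 30.6% were called higher and 29.2% lower in that comparison. In WT ganglia 24 members were called higher and 1 lower, against 29.7% and 29.8% of all genes. In both directions together 27 members were called in KO and 25 in WT ganglia, against 59.8% and 59.6% of all genes. The median log2 fold change of the members was 4.44 in KO and 4.37 in WT ganglia, against 0.0107 and 0.000312 over all genes. In KO ganglia all 4 P25 libraries lay above all 4 E14 libraries for 25 members and below them for 1, against 30.5% and 29.3% of all genes. In WT ganglia they lay above for 24 members and below for 0, against 26.1% and 24.2% of all genes.

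The order of the members changed with stage. Per kilobase of transcript, Mbp and Pmp22 led at P25, with 3613 and 3113 CPM per kb in KO ganglia and 3390.0 and 3221 CPM per kb in WT ganglia. Ndrg1 followed in both genotypes, with 540.5 CPM per kb in KO and 577 CPM per kb in WT ganglia. Pou3f1 and Fgd4 were lowest, at 3.8 and 3.24 CPM per kb in P25 KO ganglia and 3.97 and 2.4 CPM per kb in P25 WT ganglia. At E14 the leading members were Cadm4, Cnp and Ndrg1, at 85, 77.4 and 68.4 CPM per kb in KO ganglia and 100.1, 79.6 and 65.6 CPM per kb in WT ganglia. Per kilobase, the single libraries of Cadm4, Cnp and Ndrg1 overlapped within each E14 group, and those of Mbp and Pmp22 overlapped within each P25 group. By its mean levels the embryonic ganglion thus had the adhesion gene Cadm4 and the early myelin enzyme gene Cnp ahead of the structural genes that led later.

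**Figure D2:**
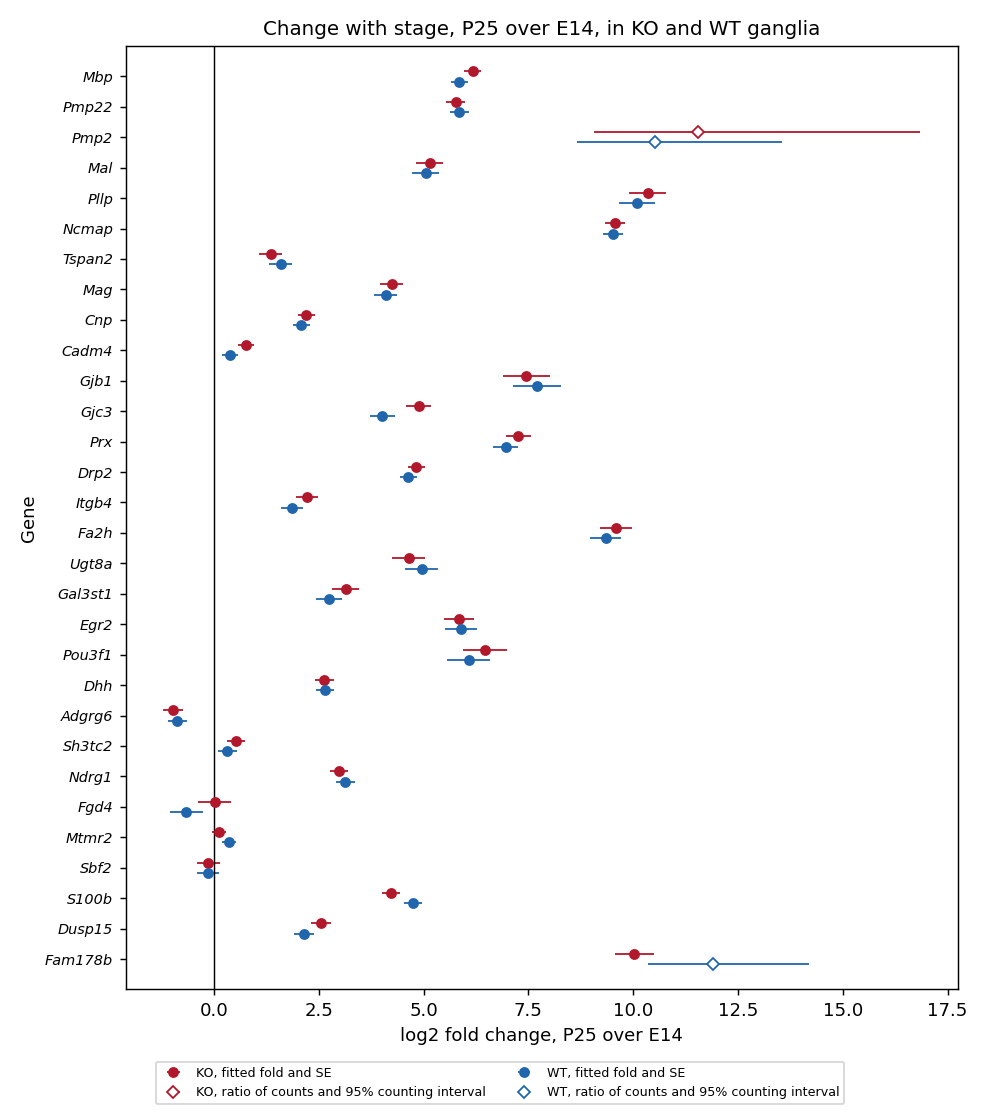
Log2 fold change of each member at P25 over E14 (horizontal axis), in KO ganglia (red) and WT ganglia (blue), with the SE of the fit. Open diamonds give the ratio of scaled counts with its 95% counting interval where E14 had 1 to 3 counts in the group. The KO and WT points lie close to each other for most members, and the points of Adgrg6 lie left of 0.

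The sequence upstream of the start was looked at for the members that RefSeq's promoter table holds, which were 21 of 30 genes with 43 windows of 250 bases (build GRCm38.p6). A set of 6 short motifs was searched on both strands: the TATA box TATAAA, the SOX cores ACAAAG and ACAATG, and the EGR sites GCGGGGGCG, GCGTGGGCG and GTGGGCG. The last of these lies within GCGTGGGCG, so a match to the longer one is also a match to it. Of the 43 member windows 16.3% held 2 or more of these motifs, against 7.91% of all 32851 windows. Windows of 1 gene overlap and share their sequence. Of the 6 genes with such a window, 4 are shown. They were chosen after their values were seen, as 2 genes that rose with stage in both genotypes (Gjb1, Gal3st1), 1 that was called in KO but not in WT ganglia (Cadm4) and 1 that was called in neither (Mtmr2). Capitals mark the matches on either strand, and each window ends at the base before the annotated start.
Gjb1, chrX:101383482-101383731, plus strand: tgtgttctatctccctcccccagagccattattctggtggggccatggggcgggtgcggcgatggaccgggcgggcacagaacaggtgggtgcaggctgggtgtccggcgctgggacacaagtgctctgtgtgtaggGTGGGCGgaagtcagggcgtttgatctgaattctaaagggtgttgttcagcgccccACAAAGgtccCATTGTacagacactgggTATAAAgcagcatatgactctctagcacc
Gal3st1, chr11:3983386-3983635, plus strand: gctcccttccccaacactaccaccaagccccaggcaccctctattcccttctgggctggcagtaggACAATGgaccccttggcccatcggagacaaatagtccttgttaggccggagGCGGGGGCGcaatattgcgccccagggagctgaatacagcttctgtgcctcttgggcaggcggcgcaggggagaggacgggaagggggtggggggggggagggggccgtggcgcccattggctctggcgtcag
Cadm4, chr7:24481773-24482022, plus strand: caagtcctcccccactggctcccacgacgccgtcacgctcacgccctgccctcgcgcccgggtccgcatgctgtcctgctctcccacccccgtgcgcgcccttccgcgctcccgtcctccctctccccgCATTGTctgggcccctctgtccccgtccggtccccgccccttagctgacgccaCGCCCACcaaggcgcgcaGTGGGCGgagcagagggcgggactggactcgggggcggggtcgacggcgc
Mtmr2, chr9:13748929-13749178, plus strand: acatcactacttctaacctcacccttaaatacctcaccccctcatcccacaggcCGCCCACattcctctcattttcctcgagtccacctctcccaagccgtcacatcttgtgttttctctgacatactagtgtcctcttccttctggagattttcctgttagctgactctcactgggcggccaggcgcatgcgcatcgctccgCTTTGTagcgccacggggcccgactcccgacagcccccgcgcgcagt
The Gjb1 window held 4 of the 6 motifs. Its GTGGGCG began 113 bases before the start, its ACAAAG 57, its ACAATG on the other strand 47 and its TATAAA 29. The Gal3st1 window held ACAATG 184 bases and GCGGGGGCG 133 bases before the start. The Cadm4 window held ACAATG 121 bases and GTGGGCG 68 bases before the start, both on the other strand. It also held GTGGGCG as written at 50 bases. The Mtmr2 window held GTGGGCG at 196 bases and ACAAAG at 47 bases, both on the other strand. Taken singly, ACAAAG was in 23.3% of member windows and 16.5% of all windows, and GTGGGCG in 14.0% and 7.02%. ACAATG was in 16.3% of member windows and 10.7% of all windows, and GCGGGGGCG in 6.98% and 2.57%. The member windows with GCGGGGGCG belonged to 2 genes, Fgd4 and Gal3st1. GCGTGGGCG was in 0 of the 43 member windows and in 0.536% of all windows. TATAAA was in 4.65% of member windows and 12.4% of all windows. These are matches of letters in a window and do not show that a factor binds there.

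The 7 compact myelin genes all rose with stage in both genotypes, with no overlap between the P25 and E14 libraries. Mbp encodes myelin basic protein, which holds the cytoplasmic faces of the membrane together. It had 6218, 6719, 8756 and 6262 CPM in P25 KO ganglia and 7043, 6608, 5575 and 7006 CPM in P25 WT ganglia. The E14 values were 93.7, 80.7, 99.5 and 114 CPM in KO ganglia and 118, 129.6, 93.5 and 115 CPM in WT ganglia. Each P25 library exceeded each E14 library by a wide margin, and P25 KO replicate 3 was the highest. The log2 fold change with stage was 6.17 ± 0.21 in KO ganglia and 5.85 ± 0.20 in WT ganglia (SE), with adjusted p-values of 1.60e-14 and 2.46e-14. The gene total of Mbp also counts golli transcripts, which start further upstream and are not confined to myelinating glia.

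Pmp22, a small tetraspan protein whose duplication causes the most common inherited neuropathy in humans, had 3371, 3714, 5681 and 3003 CPM in P25 KO ganglia and 4174, 4503, 3898 and 3739.9 CPM in P25 WT ganglia. At E14 the values were 68.4, 81.9, 68.3 and 71.6 CPM in KO ganglia and 81.1, 58.4, 65.7 and 76.7 CPM in WT ganglia. The stage groups were far apart, and the P25 KO libraries spread on both sides of the P25 WT libraries. Its log2 fold change was 5.76 ± 0.22 in KO ganglia and 5.85 ± 0.22 in WT ganglia.

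Pmp2, a fatty acid binding protein of myelin, went beyond what the E14 depth could resolve. It had 40.1, 41.2, 49.5 and 28.3 CPM in P25 KO ganglia and 44.6, 46.5, 28.2 and 31.3 CPM in P25 WT ganglia. At E14 the 4 KO libraries together held 1 count and the 4 WT libraries 2 counts. The ratio of scaled counts was 2973 in KO ganglia, with a 95% counting interval of 533 to 117451, and 1464 in WT ganglia, with an interval of 405 to 12091. These intervals cover counting error only.

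Pllp and Ncmap were also close to the limit of detection at E14. Pllp encodes plasmolipin, a tetraspan proteolipid of myelin. It had 208, 246, 324 and 218 CPM in P25 KO ganglia and 213, 223, 239 and 284 CPM in P25 WT ganglia, against 0, 0.14, 0.35 and 0.238 CPM in E14 KO ganglia and 0.0458, 0.183, 0.0569 and 0.526 CPM in E14 WT ganglia. On the log2 scale it rose by 10.35 ± 0.44 in KO ganglia and 10.09 ± 0.43 in WT ganglia. No E14 library exceeded 0.526 CPM, while every P25 library had at least 208 CPM.

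Ncmap, a small membrane protein of peripheral myelin, had 159, 192, 250.4 and 218 CPM in P25 KO ganglia and 211, 221, 198 and 242 CPM in P25 WT ganglia. Its E14 level was 0.316, 0.28, 0.233 and 0.238 CPM in KO ganglia and 0.321, 0.244, 0.284 and 0.307 CPM in WT ganglia. The E14 values were low but even, since all 8 E14 libraries held counts of it. With stage it rose by 9.56 ± 0.24 in KO ganglia and 9.52 ± 0.24 in WT ganglia on the log2 scale.

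Mal, a raft-associated proteolipid, averaged 429.8 ± 116 CPM in P25 KO ganglia and 420.0 ± 23.4 CPM in P25 WT ganglia (SD, n = 4). At E14 it averaged 12.1 ± 1.52 CPM in KO ganglia and 12.6 ± 6.87 CPM in WT ganglia. Its log2 fold change was 5.15 ± 0.32 in KO and 5.05 ± 0.32 in WT ganglia. Tspan2, a tetraspanin of myelinating glia, rose least among these genes, with a log2 fold change of 1.35 ± 0.28 in KO and 1.59 ± 0.28 in WT ganglia. It averaged 33.2 ± 7.03 CPM in P25 KO and 29.9 ± 3.6 CPM in P25 WT ganglia, against 13 ± 4.41 CPM in E14 KO and 9.92 ± 3.83 CPM in E14 WT ganglia (SD, n = 4 each).

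Of the 5 genes of non-compact myelin and adhesion, Mag, Cnp, Gjb1 and Gjc3 rose with stage in both genotypes and Cadm4 was called in KO but not in WT ganglia. Mag, the adhesion protein on the inner Schwann cell membrane facing the axon, had 164, 166, 255 and 97 CPM in P25 KO ganglia and 156, 126, 127 and 181 CPM in P25 WT ganglia. In embryos the level was 9.98, 6.86, 8.97 and 10.3 CPM in KO ganglia and 8.99, 11.2, 6.37 and 7.93 CPM in WT ganglia. The P25 KO libraries held both the highest and the lowest P25 value. On the log2 scale it rose by 4.24 ± 0.27 in KO and 4.10 ± 0.27 in WT ganglia.

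Gjb1 encodes connexin 32, the gap junction protein of incisures and paranodes. It had 42.9, 43.2, 65.8 and 24.8 CPM in P25 KO ganglia and 46.2, 40.2, 43.9 and 47.1 CPM in P25 WT ganglia. In E14 libraries it had 0, 0.327, 0 and 0.571 CPM in KO ganglia and 0.138, 0.61, 0.114 and 0.0438 CPM in WT ganglia. The stage groups did not overlap, and 2 E14 KO libraries had no count. With stage it rose by 7.45 ± 0.56 in KO and 7.70 ± 0.57 in WT ganglia on the log2 scale.

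Gjc3, a connexin of Schwann cells and oligodendrocytes known in the mouse as connexin 29, had 1.9, 2.99, 4.31 and 1.62 CPM in E14 KO ganglia and 3.48, 1.77, 4.21 and 4.51 CPM in E14 WT ganglia. Its P25 values, which separated the genotypes, are given with the genotype comparison. With stage its log2 fold change was 4.88 ± 0.30 in KO and 4.02 ± 0.29 in WT ganglia. Cnp, an enzyme that keeps cytoplasmic channels in myelin open and is already made by immature glia, averaged 839 ± 196 CPM in P25 KO and 795 ± 127 CPM in P25 WT ganglia. At E14 it averaged 182 ± 31.8 CPM in KO and 188 ± 40.1 CPM in WT ganglia (SD, n = 4 each), and its log2 fold change was 2.20 ± 0.20 in KO and 2.08 ± 0.20 in WT ganglia.

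Cadm4, the Schwann cell adhesion protein that binds axonal nectin-like partners along the internode, was the most even of the group. It had 279.6, 307, 363 and 293 CPM in P25 KO ganglia and 244, 264, 271 and 349 CPM in P25 WT ganglia. At E14 it had 202, 163, 167 and 202 CPM in KO ganglia and 195, 317, 181 and 173 CPM in WT ganglia. The single high E14 WT value was that of replicate 2. The log2 fold change with stage was 0.76 ± 0.19 in KO ganglia, with an adjusted p of 0.00181, and 0.38 ± 0.19 in WT ganglia, with an adjusted p of 0.0861. Without E14 WT replicate 2 the WT value was 0.63 with an adjusted p of 0.000957, and 6 other fits that left out 1 library called it at 0.45 to 0.48. It was also called at 0.47 without a low-count filter, at 0.44 with a stricter one and at 0.51 with same-numbered ganglia summed, so its WT change lay near the threshold. The interaction, given below, did not show that its stage change differed between the genotypes.

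The 3 genes that tie the outer Schwann cell surface to the basal lamina rose in both genotypes. Prx encodes periaxin, a scaffold that joins with Drp2 in the appositions between myelin and the outer membrane. It had 2052, 2001, 2768 and 1459.9 CPM in P25 KO ganglia and 2282, 2150.3, 2559 and 2238 CPM in P25 WT ganglia. The E14 values were 13.9, 10.3, 13.6 and 16.3 CPM in KO ganglia and 16.7, 28.7, 12.8 and 16.2 CPM in WT ganglia. The rise was large and the genotypes overlapped at both stages. Its log2 fold change was 7.26 ± 0.29 in KO and 6.96 ± 0.29 in WT ganglia.

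Drp2, the dystrophin-related partner of periaxin, averaged 557 ± 27 CPM in P25 KO and 547 ± 128 CPM in P25 WT ganglia, against 19.6 ± 2.27 CPM in E14 KO and 22 ± 3.69 CPM in E14 WT ganglia (SD, n = 4 each). On the log2 scale it rose by 4.83 ± 0.20 in KO and 4.64 ± 0.20 in WT ganglia. Itgb4, the laminin receptor subunit of the myelinating cell, rose less, by 2.22 ± 0.26 in KO and 1.86 ± 0.26 in WT ganglia on the log2 scale. It averaged 111 ± 35.3 CPM in P25 KO and 108 ± 25.1 CPM in P25 WT ganglia, against 23.7 ± 2.54 CPM in E14 KO and 29.8 ± 10.9 CPM in E14 WT ganglia.

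The 3 enzymes of the myelin galactolipids rose in both genotypes, in steps that differed widely. Fa2h adds the hydroxyl group to the fatty acid of myelin galactolipids. It had 174, 156, 178 and 117 CPM in P25 KO ganglia and 135, 135, 193 and 142 CPM in P25 WT ganglia, against 0.126, 0.373, 0 and 0.238 CPM in E14 KO ganglia and 0.367, 0.122, 0.171 and 0.219 CPM in E14 WT ganglia. It thus was near 0 in every E14 library. With stage it rose by 9.59 ± 0.38 in KO and 9.34 ± 0.37 in WT ganglia on the log2 scale. Ugt8a, which makes galactosylceramide, rose by 4.65 ± 0.39 in KO and 4.95 ± 0.40 in WT ganglia on the log2 scale. It averaged 151 ± 18.5 CPM in P25 KO and 128 ± 24.4 CPM in P25 WT ganglia, against 6.01 ± 1.78 CPM in E14 KO and 4.08 ± 2.33 CPM in E14 WT ganglia. Gal3st1, which turns galactosylceramide into sulfatide, rose least, by 3.14 ± 0.32 in KO and 2.75 ± 0.31 in WT ganglia. It averaged 51.8 ± 16.6 CPM in P25 KO and 47 ± 7.66 CPM in P25 WT ganglia, against 5.87 ± 1.87 CPM in E14 KO and 7.02 ± 3.33 CPM in E14 WT ganglia.

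Of the 4 regulators, Egr2, Pou3f1 and Dhh rose with stage and Adgrg6 fell. Pou3f1, the transcription factor of the promyelinating stage, had 15.1, 17.8, 16.6 and 8.93 CPM in P25 KO ganglia and 13.4, 18.4, 13.9 and 15.5 CPM in P25 WT ganglia. Its E14 level was 0.253, 0.14, 0.117 and 0.143 CPM in KO ganglia and 0.0458, 0.732, 0 and 0.175 CPM in WT ganglia, which was 12 counts over the KO and 17 over the WT libraries. Of the 17 WT counts, 12 came from E14 WT replicate 2. Although Pou3f1 marks a step before myelination, its level was higher at P25 than at E14. Its log2 fold change was 6.46 ± 0.53 in KO and 6.07 ± 0.50 in WT ganglia.

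Dhh, the signal from Schwann cells that organises the perineurium, had 162, 174, 207 and 105 CPM in P25 KO ganglia and 147, 167, 173 and 154 CPM in P25 WT ganglia. In embryos the level was 21.5, 24.9, 26 and 32 CPM in KO ganglia and 28, 34, 16.8 and 23.7 CPM in WT ganglia. Unlike Egr2 and Pou3f1, it had at least 16.8 CPM in every E14 library. On the log2 scale it rose by 2.63 ± 0.23 in KO and 2.65 ± 0.23 in WT ganglia.

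Adgrg6, known as Gpr126, is the adhesion receptor that starts myelination through cAMP in fish and mouse. It had 38.1, 34.9, 35.1 and 29.8 CPM in P25 KO ganglia and 33.1, 38.3, 36.4 and 19.2 CPM in P25 WT ganglia. In E14 libraries it had 55.9, 84.9, 63.1 and 67.3 CPM in KO ganglia and 62.7, 34.3, 71.5 and 64 CPM in WT ganglia. It was the single member called lower with stage in the fit reported here. Under some alternatives Fgd4 was also called lower in WT ganglia, as given below. The KO stage groups of Adgrg6 did not overlap, while E14 WT replicate 2 lay within the P25 WT range. The log2 fold change with stage was -0.98 ± 0.23 in KO ganglia, with an adjusted p of 0.0011, and -0.87 ± 0.23 in WT ganglia, with an adjusted p of 0.00271. The receptor is also made outside the Schwann lineage, so the gene total need not follow these cells.

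Egr2, also called Krox20, is the transcription factor that turns on and maintains the peripheral myelin program. At E14 it had 0.948, 0.887, 2.1 and 1 CPM in KO ganglia and 0.55, 0.976, 0.284 and 0.482 CPM in WT ganglia, and its P25 values are given with the genotype comparison. With stage it rose by 5.85 ± 0.36 in KO and 5.89 ± 0.37 in WT ganglia on the log2 scale.

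**Figure D3:**
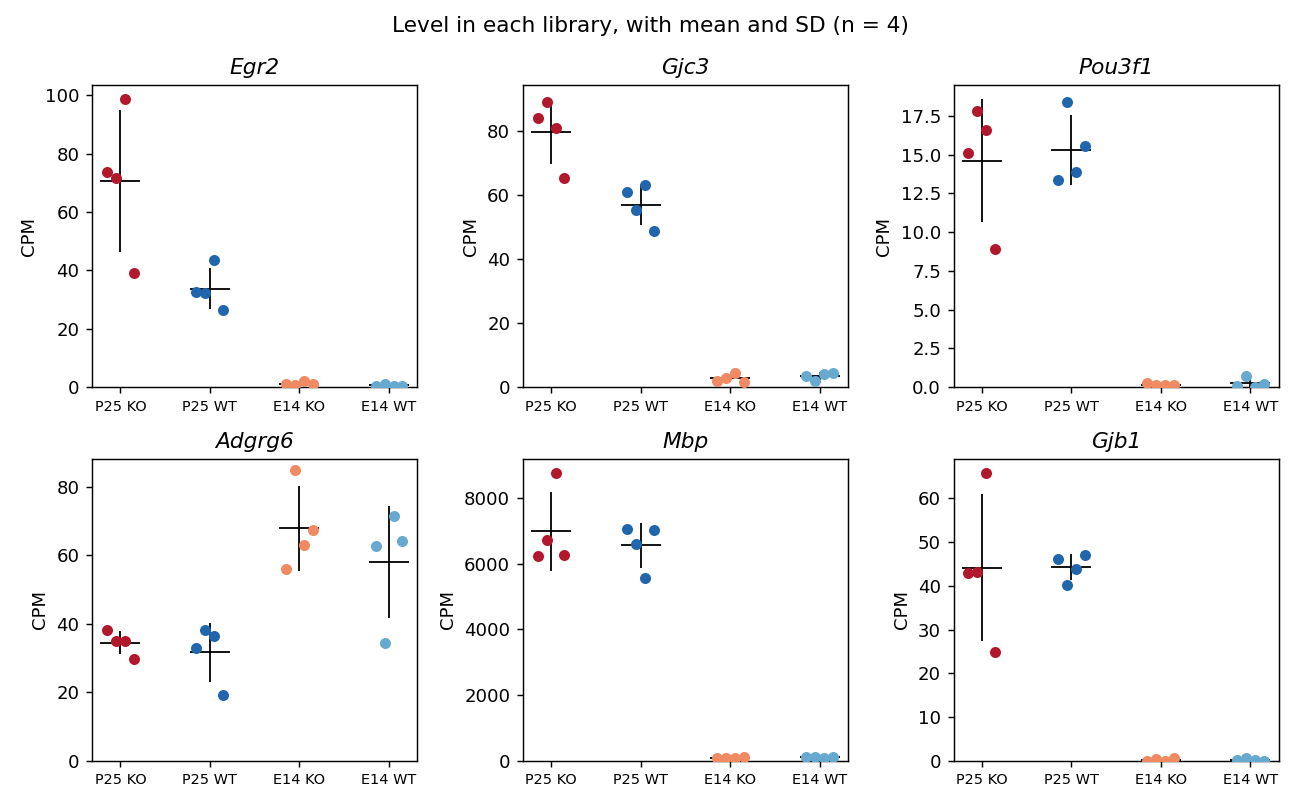
CPM of 6 members in each library, with group mean and SD (n = 4). Egr2 and Gjc3 sit higher in P25 KO than in P25 WT libraries apart from 1 Egr2 value, Adgrg6 is lower at P25 than at E14, and Mbp and Gjb1 are high at P25 with similar means in KO and WT ganglia.

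Of the 5 genes linked to inherited neuropathy through membrane traffic or phosphoinositides, Ndrg1 was called higher in both genotypes, Sh3tc2 in KO but not in WT ganglia, and the other 3 in neither. Ndrg1, a protein of Schwann cell trafficking, rose by 2.98 ± 0.22 in KO and 3.14 ± 0.22 in WT ganglia on the log2 scale. It averaged 1561 ± 428 CPM in P25 KO and 1666 ± 168 CPM in P25 WT ganglia, against 197 ± 25 CPM in E14 KO and 189 ± 51.9 CPM in E14 WT ganglia (SD, n = 4 each). Sh3tc2, an endosomal adaptor, averaged 33.7 ± 6.46 CPM in P25 KO and 32.6 ± 0.957 CPM in P25 WT ganglia, against 23.4 ± 6.01 CPM in E14 KO and 26.1 ± 8.4 CPM in E14 WT ganglia. The log2 fold change with stage was 0.52 ± 0.22 in KO ganglia, with an adjusted p of 0.0478, and 0.32 ± 0.22 in WT ganglia, with an adjusted p of 0.223. The KO call was lost in 9 of the 16 fits that left out 1 library, with adjusted p-values up to 0.154. Without E14 WT replicate 2 the WT change was 0.54 with an adjusted p of 0.0237.

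Fgd4, which activates the GTPase Cdc42, was scarce at all times. It had 9.14, 9.7, 8.17 and 8.21 CPM in P25 KO ganglia and 7.93, 7.29, 6.46 and 4.33 CPM in P25 WT ganglia. The E14 values were 9.8, 8.49, 9.61 and 6.86 CPM in KO ganglia and 8.02, 1.77, 16.7 and 14.6 CPM in WT ganglia. The lowest E14 WT value was again that of replicate 2. The stage change was 0.02 ± 0.39 in KO and -0.66 ± 0.40 in WT ganglia on the log2 scale, with adjusted p-values of 0.969 and 0.157. Without E14 WT replicate 2 the WT change was -1.01 with an adjusted p of 0.00101.

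Mtmr2, a phosphoinositide phosphatase, had 82.6, 70.9, 93.6 and 102 CPM in P25 KO ganglia and 88.2, 85.6, 84.3 and 64.4 CPM in P25 WT ganglia. Its E14 level was 78.1, 83.8, 88.6 and 70.6 CPM in KO ganglia and 66.6, 44.8, 68.3 and 70.6 CPM in WT ganglia. Its log2 change with stage was 0.12 ± 0.17 in KO ganglia and 0.36 ± 0.17 in WT ganglia, with adjusted p-values of 0.556 and 0.0761. It was therefore called in neither genotype, although 3 fits without 1 WT library (P25 replicate 4, E14 replicate 3 or E14 replicate 4) called it in WT ganglia, at 0.46 to 0.49, as did DESeq2 and RLE scaling at 0.40. Its partner Sbf2, a pseudophosphatase, had 78.6, 68.6, 82.7 and 76.9 CPM in P25 KO ganglia and 63.3, 69.2, 82.8 and 40.7 CPM in P25 WT ganglia. In embryos the level was 66.9, 99.3, 83.8 and 86.2 CPM in KO ganglia and 64.6, 30.6, 101 and 87.1 CPM in WT ganglia. The stage groups overlapped in both genotypes, and the log2 change was -0.13 ± 0.27 in KO and -0.14 ± 0.27 in WT ganglia. These genes are used by many cell types, neurons among them.

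The last 3 members also rose. S100b, a calcium-binding protein of Schwann cells and other glia, had 460.3, 503, 573 and 562 CPM in P25 KO ganglia and 576, 588, 509.6 and 771 CPM in P25 WT ganglia. In E14 libraries it had 33.4, 23, 22.9 and 32.8 CPM in KO ganglia and 28.8, 21.2, 18 and 22.6 CPM in WT ganglia. With stage it rose by 4.23 ± 0.21 in KO and 4.75 ± 0.21 in WT ganglia on the log2 scale. The highest P25 value was in WT replicate 4 and the lowest in KO replicate 1, with overlap in between.

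Dusp15, a dual specificity phosphatase of myelinating glia, had 131, 137, 159 and 106 CPM in P25 KO ganglia and 87.9, 107, 114 and 119 CPM in P25 WT ganglia. At E14 it had 25.5, 22.3, 14.4 and 28.9 CPM in KO ganglia and 20.4, 37.6, 18.8 and 20.6 CPM in WT ganglia. Its log2 fold change was 2.55 ± 0.24 in KO and 2.14 ± 0.24 in WT ganglia. Every P25 library exceeded every E14 library, and at P25 the KO libraries held the 3 highest values.

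Fam178b had 136, 143, 202 and 91 CPM in P25 KO ganglia and 139, 133, 124 and 190.4 CPM in P25 WT ganglia. At E14 the 4 KO libraries together held 10 counts and the 4 WT libraries 3 counts. It was thus all but absent from the counts at E14, and at P25 it reached a level per kilobase of 72.5 CPM per kb in KO and 74.3 CPM per kb in WT ganglia, close to those of Mag at 70.5 and 61.1. The ratio of scaled counts in WT ganglia was 3839, with a 95% counting interval of 1313 to 18618. In KO ganglia the fitted log2 fold change was 10.03 ± 0.46.

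The genotype comparison asked whether loss of Nogo-A went with a change in the module at either stage. At P25, 0 of 30 members were called between KO and WT ganglia by edgeR's quasi-likelihood test, against 0.0463% of all genes. DESeq2 also called 0 members, and 1 member had an unadjusted p under 0.05, against 1.87% of all genes. The median log2 fold change of the members was 0.07, with 22 of 30 above 0, against -0.02 over all genes. The SEs of these changes ran from 0.15 to 0.39. A p above the threshold does not show that the genotypes had equal levels.

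At E14, 0 of 30 members were called between KO and WT ganglia, against 0.0199% of all genes, and DESeq2 called 0. Again 1 member had an unadjusted p under 0.05, against 4.86% of all genes. The median log2 fold change was -0.08, with 13 of 30 above 0, against -0.04 over all genes. Without E14 WT replicate 2 the median was 0.05, with 17 of 30 above 0. It was also above 0 without E14 WT replicate 1, at 0.06, without E14 KO replicate 2 or 3, at 0.01 and 0.02, and with same-numbered ganglia summed, at 0.04, so its sign depended on single libraries. The interaction, which asks whether the stage change differed between KO and WT ganglia, also gave 0 called members by edgeR and 0 by DESeq2, against 0.0% of all genes by edgeR, and 1 with an unadjusted p under 0.05, against 4.28% of all genes.

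**Figure D4:**
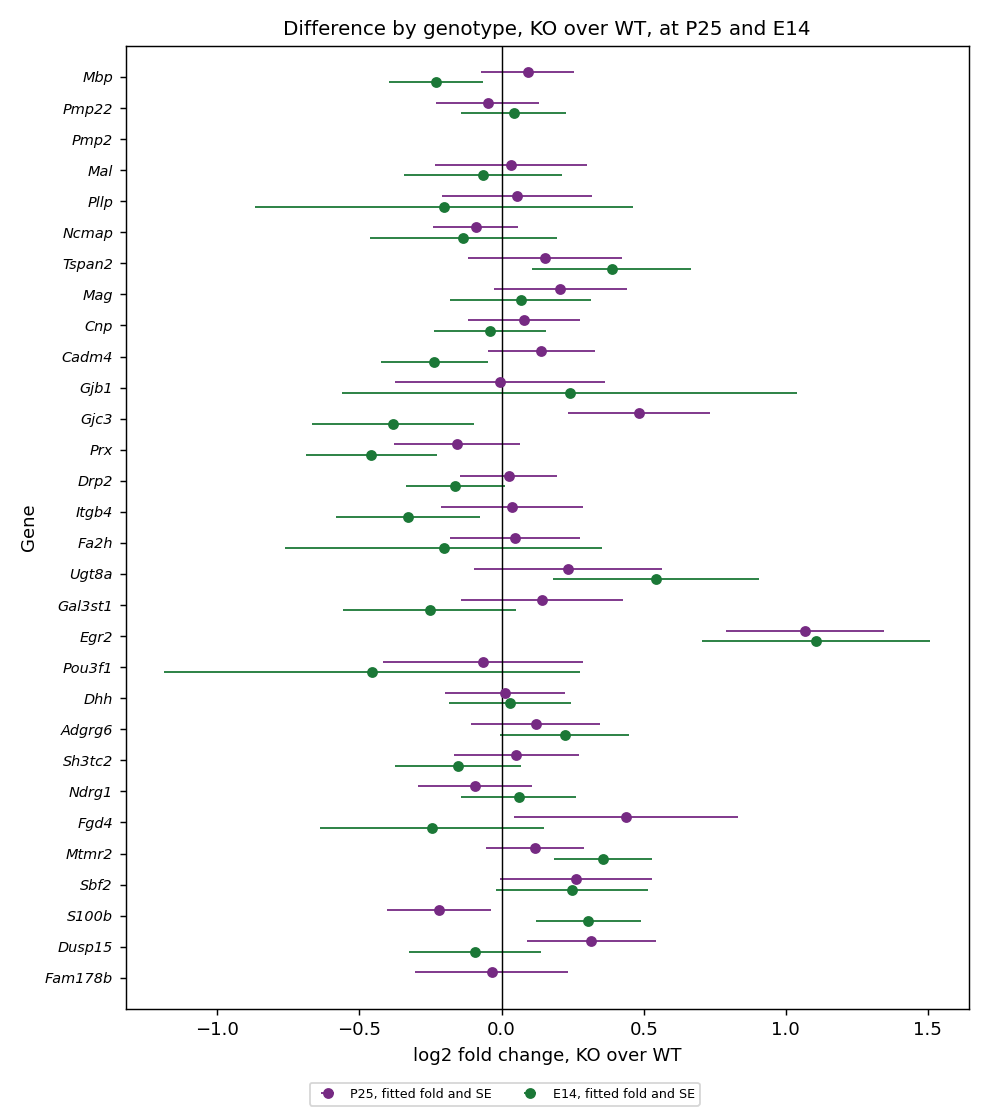
Log2 fold change of each member in KO over WT ganglia at P25 (purple) and E14 (green), with the SE of the fit. Pmp2 is left out and Fam178b is shown at P25 only. Most bars cross or approach 0, and Egr2 lies right of 0 at both stages, at 1.07 and 1.11.

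Egr2 had the lowest p among the members at both stages. At P25 it had 73.7, 71.5, 98.6 and 39.2 CPM in KO ganglia and 32.7, 32.4, 43.5 and 26.5 CPM in WT ganglia. KO replicates 1 to 3 lay above all WT libraries, and KO replicate 4 lay within the WT range. The log2 fold change was 1.07 ± 0.28, with an unadjusted p of 0.00103 and an adjusted p of 0.645. It therefore did not pass the test. DESeq2 gave an adjusted p of 0.124, and over all settings tried the adjusted p was between 0.114 and 1. Without KO replicate 4 the change was 1.27, and without KO replicate 3 it was 0.86.

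At E14 Egr2 was near the lower end of what could be measured, with 91 counts over the 4 KO libraries and 44 over the 4 WT libraries. The KO values of 0.948, 0.887, 2.10 and 1.00 CPM overlapped the WT values of 0.550, 0.976, 0.284 and 0.482 CPM. The KO over WT log2 change was 1.11 ± 0.40, with an unadjusted p of 0.0123 and an adjusted p of 0.942. Without E14 WT replicate 2 it was 1.43 with an adjusted p of 0.541. The KO value of 2.10 CPM, in E14 KO replicate 3, lay far from the other KO values of 0.887 to 1.00 CPM. The size of the E14 difference rests in part on that library. With all libraries the genotype difference was of like size at the 2 stages. The interaction of -0.04 ± 0.41 did not pass the test, with an adjusted p of 1.

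Egr1, an immediate early gene of the same family and not a member, is given beside Egr2 and was chosen after its values were seen. It had 548, 516, 431 and 13.6 CPM in P25 KO ganglia and 62, 35.2, 42.7 and 26 CPM in P25 WT ganglia. Both genes were high in P25 KO replicates 1 to 3 and low in KO replicate 4. Its part in the Egr2 values was not tested.

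Gjc3 was the member whose P25 genotypes did not overlap with the lowest p. It had 84, 88.9, 81 and 65.4 CPM in P25 KO ganglia and 60.9, 55.3, 63.2 and 48.8 CPM in P25 WT ganglia. The lowest KO value was just above the highest WT value. The log2 fold change was 0.48 ± 0.25, with an unadjusted p of 0.0664 and an adjusted p of 1, so it was not called. In E14 ganglia the difference had the other sign, at -0.38 ± 0.29. The interaction was 0.87 ± 0.38, with an unadjusted p of 0.0335 and an adjusted p of 0.993, and over all settings its adjusted p was between 0.312 and 1.

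Fgd4 was the other member with no overlap at P25, as its values above show, and its log2 fold change was 0.44 ± 0.39 with an adjusted p of 1. Thus 2 of 30 members were higher in every P25 KO library than in every P25 WT library, against 2.05% of all genes, and 0 were lower, against 1.28%. At E14 no member's genotypes were separated in this way, against 1.63% of all genes.

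The remaining members with the lowest genotype p-values were not called either. At P25 these were Dusp15, with a log2 fold change of 0.32 ± 0.23, and S100b, with -0.22 ± 0.18. At E14 they were Mtmr2, with 0.36 ± 0.17, Prx, with -0.46 ± 0.23, and S100b, with 0.31 ± 0.19. Their adjusted p-values were 1 at P25 and 0.942 at E14. Without E14 WT replicate 2 the E14 change of Prx was -0.18 and that of Mtmr2 was 0.23, so most of the Prx difference rested on that library and less of the Mtmr2 difference did. In the interaction S100b had -0.53 ± 0.26 and Cadm4 0.38 ± 0.27, both with an adjusted p of 0.993, and Cadm4 had 0.13 without E14 WT replicate 2. Fam178b also ranked among the 4 lowest in the interaction, where its E14 counts of 10 in KO and 3 in WT ganglia gave a KO over WT ratio of 3.47, with counting error alone allowing 0.895 to 19.6.

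In some P25 ganglia the module lay high or low as a whole. P25 KO replicate 3 was the highest of the 8 P25 libraries for 18 of 30 members, against 12.7% of all genes, and 29 of 30 members lay above their P25 mean in it. P25 KO replicate 4 was the lowest for 13 of 30 members, against 1669 of the 15109 genes. The median log2 deviation of the members from their P25 mean was 0.37 in KO replicate 3 and -0.27 in KO replicate 4, while in the other 6 libraries it lay between -0.06 and 0.03. The summed level of the members was 17581, 18399, 25168 and 15971 CPM in P25 KO ganglia and 19563, 19321, 18425 and 19301 CPM in P25 WT ganglia. The KO ganglia thus spread more than the WT ganglia, around means of 19279.6 and 19152 CPM. Some lists described below had their highest P25 sum in KO replicate 3 and their lowest in KO replicate 4. These sums were 31605 and 14702 CPM for other compact myelin and adhesion genes. For macrophage genes they were 324 and 231 CPM, and for endothelial genes 218 and 122 CPM. Sensory neuron, further neuropathy, and muscle and epidermis genes had a higher sum in KO replicate 4 than in KO replicate 3. The cause was not tested. Without KO replicate 3 the median genotype change of the members was -0.06, with 10 of 30 above 0. Without KO replicate 4 it was 0.17, with 27 of 30 above 0. The sign of the P25 median therefore depended on 1 library.

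**Figure D5:**
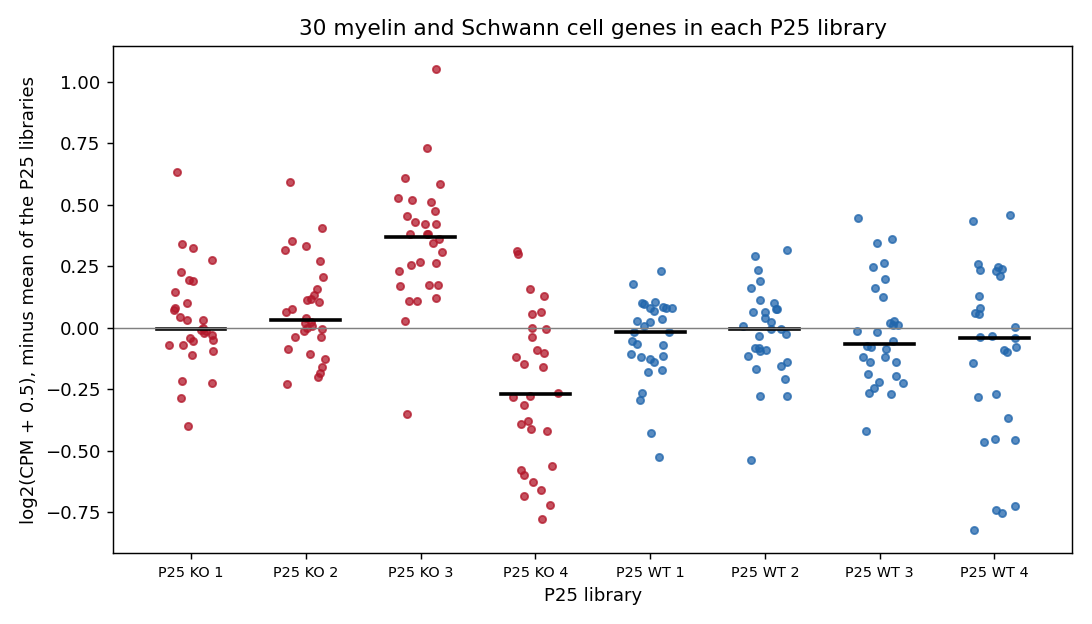
Each point is 1 of the 30 members, plotted as its log2(CPM + 0.5) in a P25 library minus the mean over the 8 P25 libraries; bars give the median. KO replicate 3 lies high with a median of 0.37 and KO replicate 4 low with a median of -0.27, while the WT libraries lie near 0.

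E14 WT replicate 2 was the highest E14 library for 14 members and the lowest for 8, against 34.5% and 30.7% of all genes. It stood apart across the table and not in these genes alone.

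Markers of other cells were read beside the module, since several members are also expressed by oligodendrocytes, which myelinate the central part of the trigeminal root. The summed level of 13 oligodendrocyte genes was 138, 93.4, 166 and 70.0 CPM in P25 KO ganglia and 122, 41.3, 19.2 and 132 CPM in P25 WT ganglia. At E14 it was between 18.2 and 25.2 CPM in KO ganglia and between 22.9 and 38.4 CPM in WT ganglia, where Mobp, Opalin and Olig2 were at 0 counts in all 8 libraries. Mobp, a protein of central myelin, had 74.5, 49.9, 83.5 and 35.7 CPM in P25 KO ganglia and 57, 17, 1.29 and 68.8 CPM in P25 WT ganglia. Mog, on the surface of central myelin, had 6.71, 6.21, 11.4 and 4.13 CPM in P25 KO ganglia and 5.92, 2.28, 0 and 10.9 CPM in P25 WT ganglia. In the P25 WT group replicate 3 was lowest for both, and its Mbp was the lowest of the 8 P25 libraries. Other shared genes differed from Mbp in this. Within the P25 WT group Cnp was lowest in replicate 1 and Mal in replicate 4. Mag was lowest in replicate 2, at 126 CPM, close to the 127 CPM of replicate 3. Gjc3 was highest in replicate 3. Of the 12 tested oligodendrocyte genes 12 had a positive KO over WT change at P25 and 0 were called. The part of this list in the values of Mbp, Mag, Mal, Cnp, Gjc3 and the other shared genes was not tested.

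The other lists placed the ganglia. Their counts of calls with stage stand beside the 30.6% higher and 29.2% lower of all genes in KO ganglia and the 29.7% and 29.8% in WT ganglia. Sensory neuron genes summed to 19426, 18279, 18632 and 19610.5 CPM in P25 KO ganglia and 20064, 18842, 19464 and 21559 CPM in P25 WT ganglia. At E14 they summed to 17231, 15928, 18629.7 and 18189 CPM in KO ganglia and 16919, 20004, 15772 and 14761 CPM in WT ganglia. The E14 WT sums lay below all P25 WT sums except in replicate 2, and the KO sums of the 2 stages overlapped. Satellite glia genes summed to 7216 to 9721 CPM in P25 KO and 6818 to 9248 CPM in P25 WT ganglia, against 1396 to 1665 CPM in E14 KO and 1366 to 1637 CPM in E14 WT ganglia. Satellite glia share S100b and other glial genes with Schwann cells. Of their 14 listed genes 10 were called higher and 3 lower with stage in KO ganglia, and 9 higher and 3 lower in WT ganglia. Macrophage genes were called higher with stage for 11 of 12 in KO and 10 of 12 in WT ganglia, and fibroblast genes for 8 of 10 in KO and 6 of 10 in WT ganglia, with 0 lower in either list. Of 10 endothelial genes 3 were called higher and 6 lower in KO ganglia, and 2 higher and 7 lower in WT ganglia. By genotype, all 10 endothelial genes had a positive KO over WT change at P25 and 11 of 12 macrophage genes a negative one at E14, with 0 called in either list, and their part in the values of the members was not tested. Skeletal muscle and epidermis genes summed to at most 13.7 CPM in any library. The astrocyte list had 5 of 8 genes called higher and 1 lower in each genotype. The sensory neuron list had 8 of 15 called higher and 4 lower in each genotype.

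Outside the members, the myelin pathway was read from 6 further lists. Of 18 other compact myelin and adhesion genes, 15 were called higher and 1 lower with stage in both genotypes. Cldn19, the claudin of Schwann cell junctions, had a log2 fold change of 10.45 ± 0.50 in KO and 9.90 ± 0.48 in WT ganglia. Cadm2 was the gene that fell, at -0.95 ± 0.30 in KO and -1.22 ± 0.30 in WT ganglia. It is an axonal adhesion gene of the family of Cadm4. The median of this list was 1.27 in KO and 1.08 in WT ganglia, below that of the members.

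The list of 20 genes of lipid synthesis and its regulators had 9 called higher and 4 lower in KO ganglia and 11 higher and 5 lower in WT ganglia, in total 13 and 16 of 20, against 59.8% and 59.6% of all genes. Scd1, which makes monounsaturated fatty acids, rose by 2.63 ± 0.19 in KO and 3.30 ± 0.20 in WT ganglia. Fasn, the fatty acid synthase, changed by -1.68 ± 0.24 in KO and -1.49 ± 0.23 in WT ganglia, and Srebf2, the regulator of cholesterol synthesis, by -0.55 ± 0.21 and -0.70 ± 0.21.

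Of 20 regulators of myelination outside the members, 4 were called higher and 5 lower in KO ganglia, and 4 higher and 7 lower in WT ganglia. These counts are near or below the shares of all genes, which were 30.6% and 29.2% in KO and 29.7% and 29.8% in WT ganglia. Pou3f2, the relative of Pou3f1 with an overlapping role, changed by 3.85 ± 0.50 in KO and 3.25 ± 0.47 in WT ganglia, and Nab1, a partner of Egr2, by 1.85 ± 0.35 and 1.50 ± 0.34. Nfatc4 changed by -3.32 ± 0.31 in KO and -3.22 ± 0.31 in WT ganglia, and the chromatin remodeller Smarca4 by -1.34 ± 0.19 and -1.45 ± 0.19.

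Among 20 genes of immature and repair Schwann cells, 19 of them tested, 5 were called higher and 10 lower in each genotype. Gap43, a growth protein of immature Schwann cells and of growing axons, changed by -2.47 ± 0.25 in KO and -2.33 ± 0.25 in WT ganglia. Tfap2a, a factor that delays Schwann cell maturation, changed by -2.93 ± 0.30 in KO and -3.12 ± 0.31 in WT ganglia. The largest rises in this list were Gfap and Olig1, which had 2 and 0 counts in the E14 KO group and 6 and 1 in the E14 WT group. Gfap is also on the astrocyte list and Olig1 on the oligodendrocyte list, and neurons share many of the listed genes. The list is thus not one of Schwann cells alone.

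Another list held 15 genes linked to inherited neuropathy, not all of them to its demyelinating forms. Of these, 9 were called higher and 1 lower in KO ganglia, and 11 higher and 3 lower in WT ganglia. Fbln5, an elastic fibre protein, changed by 0.91 ± 0.17 in KO and 1.42 ± 0.17 in WT ganglia, and Pdxk, the kinase of vitamin B6, by 1.40 ± 0.21 and 1.35 ± 0.21. Vac14 changed by -0.55 ± 0.17 in KO and -0.63 ± 0.17 in WT ganglia, and Sbf1, the relative of Sbf2, by -0.62 ± 0.22 in WT ganglia. In KO ganglia Sbf1 had -0.37 ± 0.22 and did not pass the test, with an adjusted p of 0.142. Of 8 genes of non-myelinating Schwann cells 3 were called higher and 3 lower in each genotype, among them Scn7a, a sodium channel of these cells, at 1.25 ± 0.35 in KO and 1.23 ± 0.35 in WT ganglia. In this list Ncam1 changed by -1.62 ± 0.23 in KO and -1.72 ± 0.23 in WT ganglia. All genes of this list except Scn7a are also on another list. Ngfr, L1cam, Ncam1, Gfap and Cdh2 are on that of immature and repair Schwann cells. Gfap, called higher in both genotypes, had 2 counts in the E14 KO and 6 in the E14 WT group. By genotype, 0 of the 177 tested genes of these 14 lists were called by edgeR at P25, at E14 or in the interaction, and 0 by DESeq2. Their counts with an unadjusted p under 0.05 were 6 at P25, 13 at E14 and 10 in the interaction, against 1.87, 4.86 and 4.28% of all genes. Of the 13 at E14, 6 were macrophage genes.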

How the data were processed

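RNA of single trigeminal ganglia was sequenced from libraries made with a stranded mRNA kit, per the labels' protocols. The authors deposited, for each gene, estimated counts in whole numbers. Per the submitters' processing notes the software included fastp 0.20.0, kallisto 0.46, DESeq2 1.32.0, and the build was GRCm39, with no role or order given. Neither strand setting nor annotation is given in the sources used here. In estimated counts a model divides reads between similar transcripts, so those of overlapping genes or near copies may be split unevenly. Groups and replicate numbers came from the sample titles.

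The members and the other lists were chosen with earlier results of these data known, and a few genes that the rule for named genes took are not reported here. Symbols were matched for 25614 of the 25719 identifiers. Tests used edgeR 4.0.16 in R 4.3.3: TMM scaling, filterByExpr by group, a single model of 4 group means over the 16 libraries (12 residual degrees of freedom), the quasi-likelihood F test, and Benjamini-Hochberg adjustment over the 15109 tested genes at 0.05. The two-sided test was checked on simulated counts. SEs were derived from the F statistic. Levels per kilobase used the median length of protein-coding transcripts in a GENCODE annotation of GRCm38. For an E14 group with 1 to 3 counts, scaled counts were divided and an exact 95% counting interval was computed. Amplified reads are not independent molecules, so intervals cover counting error only. Promoter windows are from RefSeq's GRCm38.p6 table.

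Named genes were the members with the 4 lowest p-values in a genotype comparison or the interaction, the 6 largest rises and up to 4 falls with stage in WT ganglia, the regulators, and Mbp, Pmp22, Mag and Prx. These are given in every library, except that the E14 counts of Pmp2 and Fam178b are given as group totals. Of each other list the 2 largest called changes each way were eligible, at a mean of at least 1 CPM. Alternatives were library totals alone, RLE scaling, DESeq2 1.42.0, no or a stricter filter (1 CPM in 4 libraries), a replicate block, only the libraries compared, summing same-numbered ganglia, and leaving out each library. No pair of libraries held identical values.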

Additional observations from a re-analysis of the deposited data

Results flagged for a closer look

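In 7 of the 117 groups of 4 libraries that were screened, 1 library lay far from the other 3 by Dixon's criterion, where chance gives about 1 in 20. In the E14 WT group, replicate 2 was such a library for 4 members. It had 317 CPM of Cadm4, against 173 to 195 CPM in the others. It had 0.610 CPM of Gjb1, against 0.0438 to 0.138 CPM, and 37.6 CPM of Dusp15, against 18.8 to 20.6 CPM. It had 44.8 CPM of Mtmr2, against 66.6 to 70.6 CPM. The other 3 flags came from different libraries. Fa2h had 193 CPM in P25 WT replicate 3, against 135 to 142 CPM in the other P25 WT ganglia. Egr2 had 2.10 CPM in E14 KO replicate 3, against 0.887 to 1.00 CPM in the other E14 KO ganglia. Mtmr2 had 64.4 CPM in P25 WT replicate 4, against 84.3 to 88.2 CPM in the other P25 WT ganglia.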

How the results depend on the processing

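Under all alternatives that were run, 0 members were called by genotype at P25, at E14 or in the interaction. The count of members called with stage was 26 to 27 in KO ganglia and 25 to 28 in WT ganglia. The 25 members called in WT ganglia were kept in every setting, and in KO ganglia Sh3tc2 was the single loss. The count called lower in WT ganglia was 2 with same-numbered ganglia summed, and 1 to 2 when libraries were left out in turn; Fgd4 was the gain in both cases, in the second without E14 WT replicate 2. Cadm4, Mtmr2, Sh3tc2 and Fgd4 crossed the threshold in WT ganglia under the settings given in the report, and the other members kept their side in every setting, with Sbf2 and Fgd4 the exceptions in direction. Sbf2 in WT ganglia ranged from -0.39 to 0.12 when libraries were left out, and Fgd4 in KO ganglia was -0.0181 with library totals alone and ranged from -0.0529 to 0.1047 when libraries were left out. Over all genes, P25 genotype calls numbered 7 as reported, 17 with DESeq2, 3 with only the compared libraries, 11 with ganglia summed and 3 to 14 with libraries left out (14 without P25 KO replicate 4). E14 calls numbered 3, then 5 with DESeq2 and 1 to 5 with libraries left out (5 without E14 WT replicate 2). Interaction calls numbered 0, then 8 with DESeq2 and up to 7 with libraries left out (without P25 KO replicate 4). With only the E14 libraries, 23 of 30 members passed the filter. The interaction uses all libraries, so no such fit was run for it. The causes were not tested.

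Replicate numbers were not used to pair the samples in the main fit. Correlations of same-numbered deviations ran from -0.392 to 0.216. Libraries of unlike number were not correlated, so a pairing cannot be judged from these values. With the replicate as a block, 26 members were called with stage in KO ganglia, 25 in WT ganglia and 0 by genotype or in the interaction; Sh3tc2 in KO ganglia had an adjusted p of 0.0742. Over all genes the block left 3 P25 genotype calls. Depth limits Pmp2, Fam178b, Gjb1, Pllp, Ncmap, Fa2h, Pou3f1 and Egr2 at E14, where groups held few counts.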

Other observations

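Endothelial and macrophage genes leaned to one side between the genotypes, with 0 called. At P25 all 10 listed endothelial genes had a positive KO over WT change, with a median of 0.34 on the log2 scale, and 2 had an unadjusted p under 0.05, while edgeR and DESeq2 called 0. Their summed level was 187, 165, 218 and 122 CPM in P25 KO ganglia and 145, 124, 155 and 148 CPM in P25 WT ganglia, so KO replicate 4 was the lowest of all. At E14, 11 of 12 macrophage genes had a negative KO over WT change, with a median of -0.53, and 6 had an unadjusted p under 0.05, while edgeR and DESeq2 called 0. Their summed level was 76.9, 66.4, 85.5 and 76.6 CPM in E14 KO ganglia and 138, 113, 81.4 and 122 CPM in E14 WT ganglia, with E14 KO replicate 3 above E14 WT replicate 3.

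Oligodendrocyte genes had a wide range among P25 ganglia. The summed oligodendrocyte level in P25 WT replicates 3 and 4 was 19.2 and 132 CPM, while the summed level of the members in the same libraries was 18425 and 19301 CPM. In P25 KO ganglia replicates 3 and 4 were the highest and the lowest for both sums.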
